A study of Homo sapiens with 2 samples.

Results

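MicroRNA genes whose probe sets gave a clear signal were examined in BE(2)-C cells, a line of human neuroblastoma cells in which MYCN is amplified, after knocking-down the long noncoding RNA linc00467. A probe set is a group of array probes that together report 1 transcript. It was taken when its gene symbol was that of a microRNA (MIR followed by a number, or MIRLET7) and not of a microRNA host gene, and when its mean log2 level over both arrays was at least 5.68, the median level of all named probe sets. MicroRNA genes of a chromosome 14 region with imprinted clusters and of the miR-17-92 and miR-106b-25 clusters were left out. MIR770, inside the imprinted chromosome 14 gene MEG3, lies outside that region and was kept. The genes were thus chosen by their level over both arrays, so the levels below are a description. The difference between the arrays was not used. This gave 213 probe sets of 178 genes, out of 1236 microRNA probe sets of 1072 genes, 16098 named probe sets and 53617 probe sets in all. Another 16 microRNA probe sets reached the level and were left out by name or region.

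The study asked which genes change when linc00467 is lost. Cells of the control group carried control siRNA and cells of the other group carried linc00467 siRNA, both for 48 h, and both on the same MYCN-amplified background. Total RNA was labelled with biotin, and 1 Affymetrix HuGene-2_0-st array was hybridized per condition. With 1 culture and 1 array each, neither an error nor a test could be had, and every difference below compares these 2 arrays, not the 2 treatments in general. A lower level in a bulk culture can come from fewer cells that make an RNA or from less of it in each cell, and these cannot be told apart. Differences are log2 levels with linc00467 siRNA minus those with control siRNA.

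LINC00467 itself (probe set 16677153, chromosome 1) read 6.55 with control siRNA and 5.67 with linc00467 siRNA, a log2 difference of -0.88. Both labels and level therefore run the same way for the targeted RNA, although a free-text description of the knockdown sample names the target lncMycN. Neuroblastoma markers such as HAND2, GATA3 and DBH were measured for 12 of 13 listed genes, with control levels of 5.76 to 11.67. With linc00467 siRNA 11 of their 14 probe sets read lower, with a median difference of -0.17. By at least 1.2 fold, 4 were lower and 2 higher, and these 2 are both of the gene ISL1. Of the 8041 named probe sets with a mean level of at least 5.68, 3418 read lower. By at least 1.2 fold, 13.4% of the 8041 were lower and 10.7% higher. For other cells, only 1 of 6 blood markers was measured, CD14, which read 3.80 with control siRNA. Of the endothelial markers 3 of 4 were measured and read 3.44 to 4.62. Only 1 of 4 fibroblast markers was measured, DCN, which read 4.02, and 3.61 with linc00467 siRNA. All of these were below 5.68. Of 4 Schwann cell markers, SOX10 read 5.81 and S100B 5.96 with control siRNA, and 5.81 and 6.13 with linc00467 siRNA, both above 5.68. The part of the markers' differences and of other cells in the values below was not tested.

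MicroRNAs are short RNAs that are cut out of long primary transcripts. Drosha with DGCR8 frees a hairpin in the nucleus, exportin-5 carries it out, Dicer cuts the hairpin to a duplex, and an Argonaute protein keeps 1 strand as the mature microRNA. Bases 2 to 8 of the mature strand, the seed, pair with target messages, so microRNAs with a common seed have overlapping targets. Many microRNA genes lie inside longer host genes, on the same strand, and share their transcript. The array was hybridized with labelled total RNA, and whether a microRNA probe set reads the mature RNA, the hairpin or the longer primary or host transcript was not tested. Signals of different probe sets depend on their probes and are not amounts of RNA that can be set against each other.

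The hairpins of 3 of the 4 genes with the largest differences are shown here, because the probe sets carry their names. MIR4469 is named only. They are RefSeq sequences on GRCh38.p14, written 5′ to 3′, with the annotated mature sequence in capitals. MIR4737 lies at chr17:60043025-60043105 on the minus strand, MIR4292 at chr9:136830957-136831023 on the plus strand, and MIR891A at chrX:146027794-146027872 on the minus strand.
MIR4737: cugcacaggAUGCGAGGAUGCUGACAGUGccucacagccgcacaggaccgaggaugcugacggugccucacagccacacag
MIR4292: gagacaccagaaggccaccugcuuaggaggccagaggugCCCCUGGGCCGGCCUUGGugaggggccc
MIR891A: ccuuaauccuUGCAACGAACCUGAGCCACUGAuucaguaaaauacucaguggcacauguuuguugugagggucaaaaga

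Most of the microRNA probe sets with clear signal had close to the same level on both arrays. Their median log2 difference was 0.00, with quartiles at -0.16 and 0.10, and 104 were lower, 90 higher and 19 exactly equal. The whole range ran from -1.10 to 1.07, and the SD across probe sets was 0.28. Exactly equal values made up 8.92% of the group, 22.9% of all named probe sets and 11.5% of those at or above the level. Why values were exactly equal on both arrays was not tested. Named probe sets at or above the same level also had a median of 0.00, with an SD of 0.26 across 8041 probe sets. By at least 1.2 fold, 32 of the 213 microRNA probe sets were lower (15.0%) and 27 were higher (12.7%). The background over all named probe sets was 9.78% lower and 8.5% higher, and over named probe sets at or above the level it was 13.4% and 10.7%. The shares of the microRNA probe sets are near this background at matched level, so their count is not a result about microRNAs. The split depended on the scaling: after quantile normalization of the 2 arrays, 24 were lower and 35 higher. At 1.5 fold, 5 were lower and 2 higher, against 1.93% and 1.09% of all named probe sets and 2.97% and 1.36% of those at or above the level. At 1.8 fold, the cut-off of the study, 2 were lower and 2 higher (0.939% each), against 0.578% and 0.224% of all named probe sets and 0.908% and 0.323% at or above the level. At 2 fold, 1 was lower and 1 higher (0.469% each), against 0.224% and 0.112%, and 0.386% and 0.162% at or above the level.

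**Figure D1:**
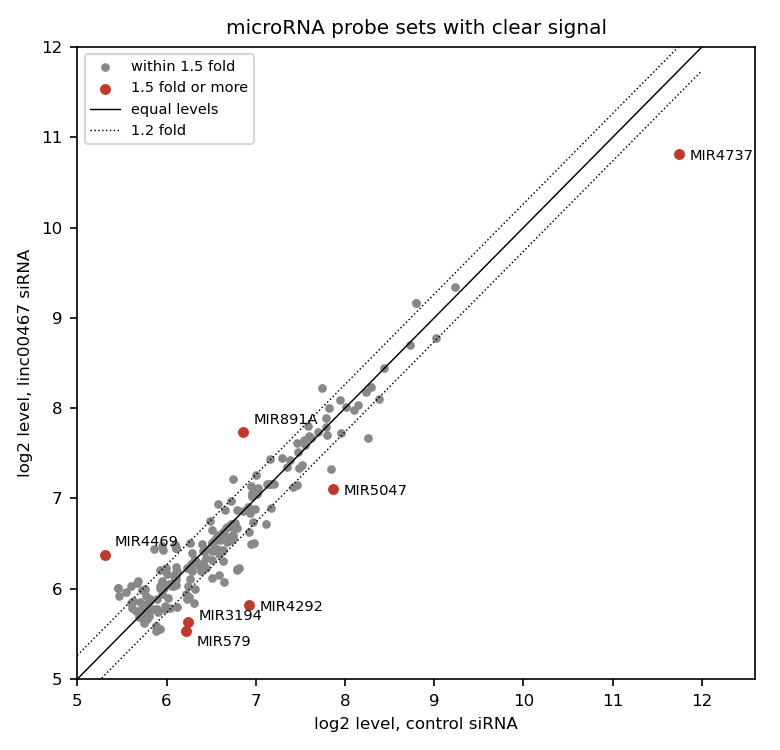
Log2 level with control siRNA (x axis) against linc00467 siRNA (y axis) for the 213 microRNA probe sets with clear signal, 1 point per probe set. The solid line marks equal levels and the dotted lines 1.2 fold. The 7 labelled red points differ by at least 1.5 fold, 5 below and 2 above the line.

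MIR4292 had the lowest difference. Its probe set 17091390 on chromosome 9 read 6.92 with control siRNA and 5.82 with linc00467 siRNA, a log2 difference of -1.10 or 2.14 fold lower. A second probe set of the gene, 17119734, which was below the level of 5.68, read 5.72 and 4.81, a difference of -0.91, so both probe sets of MIR4292 were lower on the knockdown array. Among the 500 named probe sets nearest to the first in mean level, 2 were as low, and these 500 had a robust SD of 0.17. MIR4292 lies within the span of RABL6 on the same strand, and RABL6 is unnamed on this array here.

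MIR4737 (probe set 16847319, chromosome 17) had the highest mean level of all 213. It read 11.75 with control siRNA and 10.82 with linc00467 siRNA, a difference of -0.93 or 1.90 fold lower. Of the 500 nearest probe sets in level, 2 were as low. The gene lies within the span of HEATR6, whose probe set read 9.61 and 9.28, a difference of -0.33. The strand of HEATR6 is not in the tables used here, so it was not counted among the host genes below.

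Higher by at least 1.8 fold were 2 genes with 1 probe set each. MIR4469 (17126016, chromosome 8) rested on a low control level, with 5.31 against 6.38 with linc00467 siRNA, a difference of 1.07 or 2.10 fold higher. Its control level alone lay below 5.68. The same held for 1 of the 2 arrays in 19 of the 213 probe sets, 11 of them with control siRNA and 8 with linc00467 siRNA. Of these 19, 6 were lower and 7 higher by at least 1.2 fold, and they passed the level through the array where they were high. MIR579, MIR3194, MIR328, MIR3130-1 and MIR1913, described next, are among them, as are MIR152, MIR130B, MIR642A and MIR644A further below. MIR891A (17114774, chromosome X), a gene known for its expression in the epididymis, read 6.86 with control siRNA and 7.73 with linc00467 siRNA, 1.83 fold higher. None of the 500 probe sets nearest to MIR891A in level, 0 of 500, had a difference as high, whereas 2 of 500 did for MIR4469. The genes ranked in this way, here, above and below, were picked out of 213 probe sets for their large differences. Low ranks therefore come with the choice and are a description only. MIR891A also has a hairpin poor in G and C for this group, at 43.0%.

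Below these, 3 probe sets were lower by at least 1.5 fold. MIR5047 (16847839) read 7.87 with control siRNA and 7.10 with linc00467 siRNA, a difference of -0.76. It lies within DDX5, an RNA helicase gene whose product also assists Drosha. MIR579 (16995024, chromosome 5), within the zinc finger RNA-binding protein gene ZFR, read 6.22 and 5.53, a difference of -0.69. MIR3194 (17119286, chromosome 20), within the transcription factor gene NFATC2, read 6.24 and 5.63, a difference of -0.61. Among the 500 nearest probe sets, 6, 4 and 10 were as low as MIR5047, MIR579 and MIR3194, so such values occurred in other genes of the same level too.

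The rest of the 10 lowest lay between -0.56 and -0.58. MIR3198-1 (8.26 and 7.67), MIR27B (6.81 and 6.23), MIR4632 (6.65 and 6.07) and MIR3621 (6.79 and 6.22) were each lower with linc00467 siRNA. MIR27B belongs to the miR-23b/27b/24-1 cluster and is known as a regulator of fat cell formation and blood vessel sprouting. MIR4516 was lower on 1 probe set (6.79 and 6.21) and had exactly equal levels of 6.72 on its other, so its lower value rests on 1 probe set.

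Among the 10 highest, MIR3135B had 5 probe sets. One read 5.86 with control siRNA and 6.44 with linc00467 siRNA, a difference of 0.58, and the other 4 all read 6.11 and 6.45, a difference of 0.34. These 4 have identical values on both arrays and carry no separate information. MIR328 read 5.46 and 6.01, a difference of 0.55, on a pair of probe sets with identical values. MIR3978 (5.95 and 6.47), MIR2909 (7.74 and 8.22), MIR1299 (6.75 and 7.21), MIR4663 (5.96 and 6.43), MIR3130-1 (5.47 and 5.92) and MIR1913 (5.54 and 5.97) were higher by 0.43 to 0.52. A second probe set of MIR2909 and of MIR3130-1, below the level, had differences of 0.04 and 0.00, so these higher values rest on 1 probe set each. The roles of most of these genes are not given here.

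**Figure D2:**
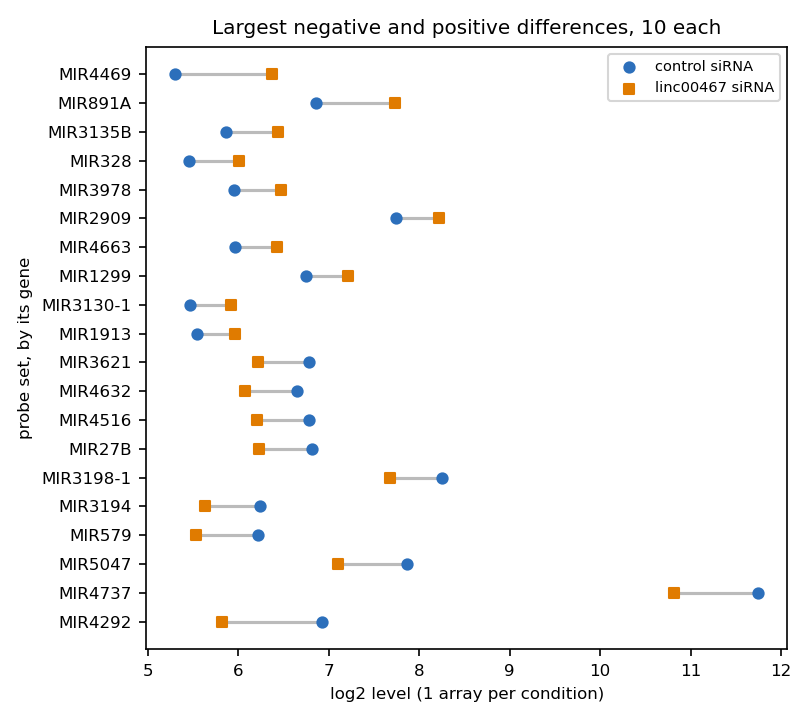
Log2 level of the 10 probe sets with the lowest and the 10 with the highest difference, 1 per row. Circles are control siRNA and squares linc00467 siRNA, 1 array each. The lines are longest for MIR4292, MIR4469, MIR4737 and MIR891A.

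Of the 10 highest levels, those other than MIR4737, MIR574 and MIR3619 were within 1.2 fold. MIR1910 read 9.23 with control siRNA and 9.34 with linc00467 siRNA, MIR3907 9.02 and 8.78, and MIR3143 8.73 and 8.70. MIR663B read 8.44 on both, MIR4641 8.29 and 8.24, MIR4638 8.23 and 8.18, and MIR3935 8.15 and 8.04. MIR574 was the only gene of the 10 highest that was higher by at least 1.2 fold, with 8.80 against 9.16 and a difference of 0.36 on a pair of probe sets with identical values. MIR3619 was lower on both of its probe sets, with 8.38 against 8.11 (-0.27) and 7.46 against 7.15 (-0.31). Of the 213 probe sets, 162 had a mean level below 7, 37 lay between 7 and 8, 12 between 8 and 9, and 2 above 9, so the group is mostly close to its lower limit. Just above that limit were MIR3130-1, MIR548T (5.69 on both arrays) and MIR644A (5.75 and 5.62). Just below it were MIR3160-1 (5.81 and 5.54), MIR423 (5.67 on both) and MIR9-3 (5.98 and 5.35), whose mature product is abundant in neural tissue. These are values of 1 probe set each. A second probe set of MIR548T read 1.55 and 2.19, a difference of 0.63. Averaged over 2 probe sets, the difference was -0.28 for MIR423 and -0.09 for MIR3160-1.

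The group holds several microRNAs with well-studied functions, which are named here by their function after their values had been seen. MIR210, the main microRNA induced by hypoxia, read 7.02 with control siRNA and 7.05 with linc00467 siRNA. MIR424 and MIR503, neighbours on chromosome X that act on G1 cell cycle genes, read 6.43 on both arrays and 6.40 against 6.49. All 3 were within 1.2 fold. MIR375, known from pancreatic islets and neuroendocrine cells, read 5.68 and 6.08, a difference of 0.40. MIR152, of the miR-148/152 family, read 5.67 and 6.06, a difference of 0.39. These 2 were higher by at least 1.2 fold, from control levels at the limit of the group. MIR152 lay below 5.68 with control siRNA and passed the level through the array where it was high. MIR449B, of a family that promotes the formation of motile cilia, read 6.72 and 6.97, a difference of 0.25.

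MIR92B read 7.95 with control siRNA and 7.73 with linc00467 siRNA, a difference of -0.22. Its 3p strand carries the seed of the miR-25/92 family. MIR32, with the same seed, lay below the level at 5.58 and 5.11. MIR367, MIR363 and MIR92A2, which share it as well, had control levels of 1.40 to 1.69. MIR25, which was left out of the group by name, carries the seed too and read 7.41 and 7.14, a difference of -0.26. MIR130B, of the miR-130 family, read 5.93 and 5.55 on 1 probe set (-0.37) and 4.99 and 4.97 on another (-0.03). MIR500B, from an X-linked cluster, had a control level of 6.98 and a difference of -0.48. The only let-7 gene of the group, MIRLET7A3, read 6.93 and 6.84. LIN28B, which encodes the protein that blocks let-7 maturation, read 9.30 and 10.07 on the same arrays, a difference of 0.77.

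Of the tissue microRNAs that were listed, only MIR218-2 was in the group. The neuronal list had 12 of 14 genes measured with control levels of 1.41 to 6.51, the highest being MIR218-2. The 5 blood microRNAs read 1.74 to 5.07 with control siRNA, 7 of 8 muscle microRNAs read 1.43 to 4.49, and liver MIR122 read at most 2.50. No gene of the blood, muscle, liver, endothelial or stromal lists reached the level. MIR9-1, also a neuronal microRNA, read 3.17 and 4.18, far below the level.

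Genes with clear signal had hairpins rich in G and C. Hairpins were found for 153 of the 178 genes, with a median G and C content of 61.3% (quartiles 54.3% and 66.3%), against 46.2% for 683 other microRNA genes. Of the 153, 53.6% had at least 60% G and C, against 9.96% of the others. A run of GGGG stood in 72 hairpins (47.1%), against 23.1% of the others and 27.04% of all 884 microRNA hairpins. Hairpin length was close, with medians of 81 and 83 bases. The extremes of composition in the group are shown here with any GGGG in capitals. MIR579 at chr5:32394378-32394475, on the minus strand, has 32.7% G and C and no such run, and MIR1908 at chr11:61815161-61815240, also on the minus strand, has 80% and 1 run.
MIR579: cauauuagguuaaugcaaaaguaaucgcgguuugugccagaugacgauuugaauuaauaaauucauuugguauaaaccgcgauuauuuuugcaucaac
MIR1908: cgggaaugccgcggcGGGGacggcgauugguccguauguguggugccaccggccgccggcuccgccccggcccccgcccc

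Signal rose with the G and C content of the hairpin over microRNA genes as a whole. The median log2 level was 1.87 in 155 genes under 40% G and C, 2.68 in 291 genes from 40% to 50%, and 4.25 in 240 genes from 50% to 60%. It was 5.70 in 117 genes from 60% to 70% and 6.36 in 33 genes at 70% or more. Genes of the group made up 3.23% of the lowest band and 66.7% of the highest. Across 884 genes Spearman's rho of G and C content with level was 0.66, and it was 0.56 in 420 genes with names below 1000 and 0.72 in 454 genes with higher numbers. These genes share both arrays and the same labelling, and are not independent replicates. The difference between the arrays had little relation to composition, with a rho of -0.10 within the group. MIR1908, at the top of the range, read 6.60 and 6.54. The part of base composition in the level of a probe set was not tested.

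**Figure D3:**
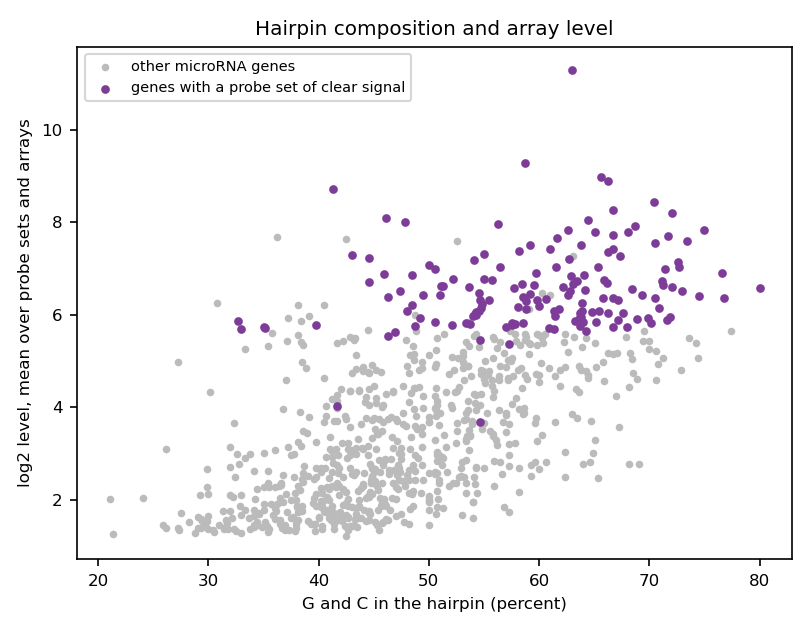
G and C content of the RefSeq hairpin (x axis, percent) against the log2 level (y axis, mean over probe sets of the gene and both arrays), 1 point per microRNA gene. Purple points are genes with a probe set of clear signal, and grey points are the other genes. The cloud climbs to the right, and 53.6% of the purple genes lie at 60% or more. A purple gene can lie below 5.68 where the average includes weaker probe sets.

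The catalogue number and the chromosome varied with membership as well. Names of 1000 or above were carried by 112 of the 178 genes (62.9%), against 51.0% of 841 other microRNA genes. Of all 1072 measured microRNA genes, 178 were in the group. The shares were highest on chromosome 16, with 12 of 26 genes (46.2%), chromosome 22, with 10 of 26 (38.5%), and chromosome 20, with 9 of 27 (33.3%). On chromosome 13, 0 of 22 were, on chromosome 21, 0 of 11, and on the X, which holds several clusters, 5 of 88. Strand was known for 165 genes, and 102 of them (61.8%) lay within a longer gene on the same strand, against 55.8% of the others. Longer genes of unknown strand, such as HEATR6, could not be counted, so both shares are lower limits.

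Several probe sets for a gene gave a view of how well a value repeats within an array. In the group, 35 genes had more than 1 probe set on the array. For 6 of them, MIR1229, MIR3137, MIR3175, MIR328, MIR4454 and MIR574, all probe sets had the same values on both arrays. In the other 29 the differences of a gene's probe sets spanned a median of 0.19 and the levels a median of 0.59 on the log2 scale. MIR642A had the widest span of differences, with 5.60 against 5.84 (0.24) on the probe set in the group, 2.78 against 3.51 (0.73) on another and 1.60 against 2.70 (1.11) on the last, all higher with linc00467 siRNA. MIR3622A was the only gene with opposite signs, at -0.10 and 0.25. MIR326 repeated most closely, at -0.18 on both. For scale, the quartiles of the differences over the whole group were -0.16 and 0.10.

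**Figure D4:**
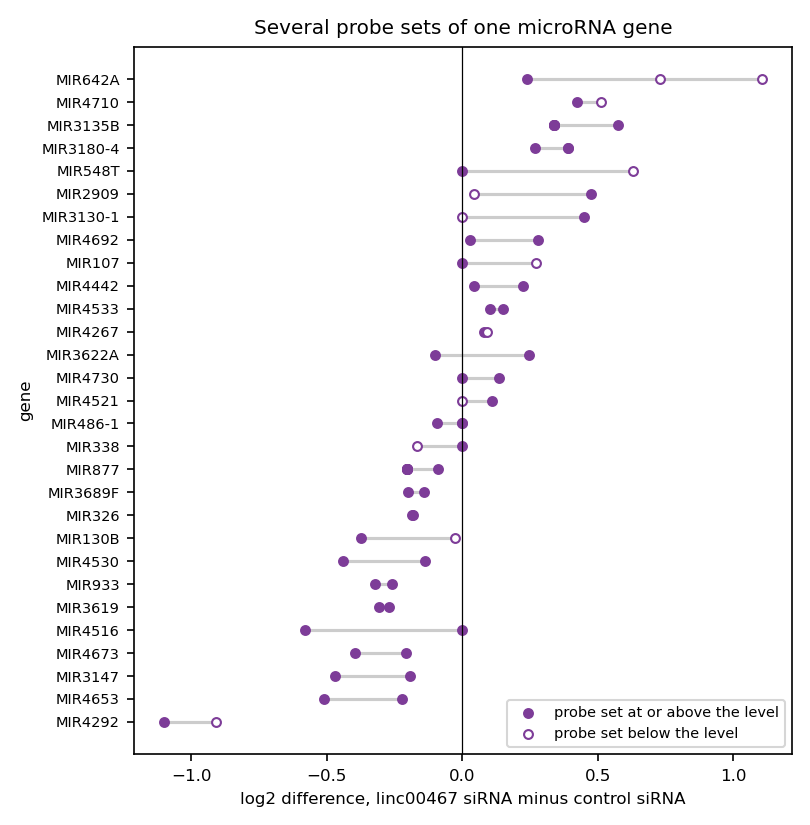
Log2 difference (x axis, linc00467 siRNA minus control siRNA) of each probe set of the 29 genes whose probe sets have different values, 1 gene per row. Filled circles are probe sets at or above the level and open circles those below it. MIR4292 lies to the left of 0 and MIR642A to the right on all of their probe sets.

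Host genes were compared because a microRNA inside a host shares its transcript. Of the 102 genes within a host, 66 had a host with a named probe set. For 46 of the 66 both were within 1.2 fold. In 4 pairs both were lower by at least 1.2 fold, in 0 both were higher, and in 1 they were opposite. Over all named probe sets 9.78% were lower and 8.5% higher by this fold. The microRNA alone was past 1.2 fold in 8 pairs and the host alone in 7. Spearman's rho between the 2 differences was 0.25 over the 66 pairs, which share both arrays. Exons and introns are not marked in the tables used here, so the place of each microRNA within its host is not given.

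The pairs in which both were lower had quite different sizes. SLIT3, an axon guidance ligand gene, read 10.34 with control siRNA and 9.55 with linc00467 siRNA, a difference of -0.79, while its microRNA MIR218-2, known in motor neurons, read 6.51 and 6.12, a difference of -0.39. MEG3, an imprinted noncoding RNA of chromosome 14, averaged 8.42 and 8.10 over its probe sets (-0.32), and MIR770 inside it read 7.18 and 6.89 (-0.28). MIR137HG, the host of a brain microRNA, read 6.80 and 6.52 (-0.27), and MIR2682 read 6.63 and 6.31 (-0.33). DDX5 read 10.72 and 10.35 (-0.37), about as far down as HEATR6, while MIR5047 was lower by more. The pairs lie on chromosomes 5, 14, 1 and 17.

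In other pairs the 2 values parted. MIR3198-1 was at -0.58 while BID, a pro-apoptotic BCL2 family gene, read 8.84 and 9.12, a difference of 0.28. ZFR read 10.24 and 10.23, so its level was close to equal where MIR579 was lower. AOPEP, an aminopeptidase gene, read 6.57 and 6.42 (-0.14), with MIR27B at -0.58 and MIR23B, at 5.90 and 5.78, at -0.12. On the other side, PANK1, a pantothenate kinase gene, read 6.35 and 5.87 (-0.48) while MIR107, which shares a seed with miR-103, read 6.11 on both arrays, and 5.01 and 5.29 on a probe set below the level. LDLRAD4 read 5.97 and 6.61 (0.64) while MIR4526 read 6.27 and 6.28.

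**Figure D5:**
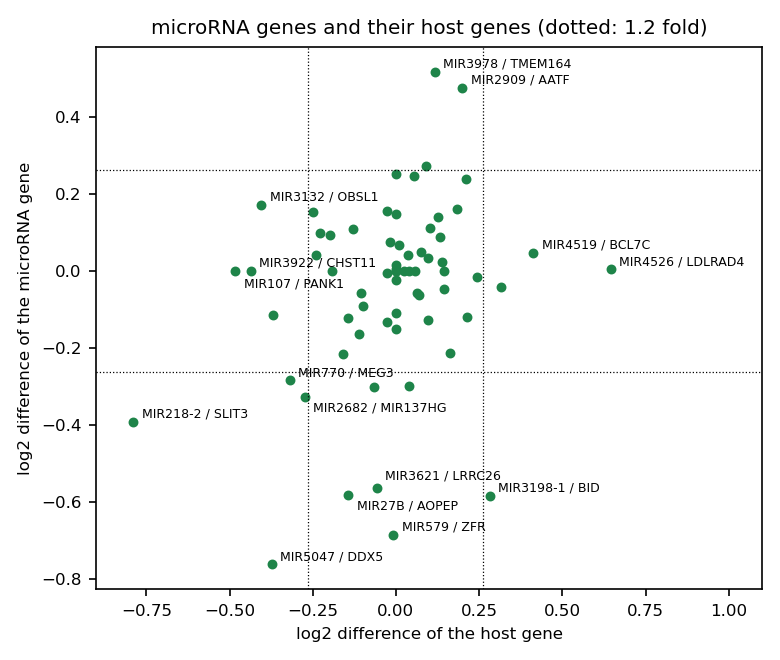
Log2 difference of the host gene (x axis) against that of the microRNA gene (y axis) for the 66 pairs with a named host, 1 point per pair, with several probe sets averaged (for the microRNA, those at or above the level). Dotted lines mark 1.2 fold. The corner at lower left holds 4 pairs, and the corner at upper right 0.

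Neighbouring microRNA genes were compared because they are usually cut from a common primary transcript. Within 10 kb on the same strand, 16 clusters contained 24 genes of the group and 51 microRNA genes in all. In 10 of the 16 every probe set was within 1.2 fold, and 6 had at least 1 probe set past it. Over all named probe sets 9.78% were lower and 8.5% higher by this fold. That share is per probe set, whereas the count is per cluster and a cluster holds several probe sets. The 2 cannot be set against each other, and the count is not a result about clusters. The clusters of MIR3677, MIR298 and MIR424 passed it only through genes outside the group. These were MIR4717, MIR296 and MIR450A2, with control levels of 3.56, 2.51 and 1.35. In the miR-23b cluster of chromosome 9, MIR27B was at -0.58, MIR23B at -0.12, and MIR24-1 had equal levels of 2.07. In the paralogous cluster of chromosome 19, MIR24-2 read 6.24 and 6.23, MIR27A 5.49 on both, and MIR23A 5.04 and 5.10, all within 1.2 fold. On the X, MIR500B was at -0.48 while its neighbours MIR500A and MIR501, both below the level, were at -0.06 and -0.16 and MIR532 was at -0.35. In the same cluster MIR188 and MIR660 were at 0.10 and 0.06, and MIR362 and MIR502 had equal levels on both arrays. MIR424 and MIR503 had clear signal next to MIR542, which read 2.60 on both arrays, and 3 MIR450 genes with control levels of 1.35 to 1.73.

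Seeds were compared because they set the targets. Mature sequences were found for 159 of the 178 genes, 225 sequences with 215 distinct seeds, and only 8 seeds were shared by several genes of the group, 16 genes in all. The members of the miR-181 family, known from lymphocyte development, are shown with the seed in capitals, together with the pair MIR326 and MIR330 and the pair MIR1301 and MIR5047, because their values are set side by side.
hsa-miR-181b-5p: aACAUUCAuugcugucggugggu
hsa-miR-181c-5p: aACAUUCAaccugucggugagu
hsa-miR-181d-5p: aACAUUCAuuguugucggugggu
hsa-miR-326: cCUCUGGGcccuuccuccag
hsa-miR-330-5p: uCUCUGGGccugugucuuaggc
hsa-miR-1301-3p: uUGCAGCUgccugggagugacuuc
hsa-miR-5047: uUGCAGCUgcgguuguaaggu
The 3 miR-181 genes of the group were within 1.2 fold, with MIR181B1 at 6.74 and 6.68, MIR181C at 6.01 and 6.16, and MIR181D at 6.31 on both arrays. MIR181B2, which gives the same mature miR-181b, lay below the level at 3.21 and 3.64, a difference of 0.44. MIR326 read 6.74 and 6.56 on 1 probe set and 6.51 and 6.32 on the other, and MIR330 read 6.44 and 6.23, so this seed was lower by 0.18 to 0.22 on all 3 probe sets, short of 1.2 fold. MIR1301 read 6.58 and 6.60 while MIR5047 was at -0.76, so a common seed did not come with a common difference.

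The MIR3689 genes of chromosome 9 share seeds and lie side by side as near copies, so their probe sets may read each other's RNA. The 5p strands of MIR3689A and MIR3689B and the product of MIR3689F carry 1 seed, and both MIR3689D genes give the same mature sequence. The 3p strands of MIR3689A and MIR3689B share another seed.
hsa-miR-3689a-5p: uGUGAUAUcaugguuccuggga
hsa-miR-3689f: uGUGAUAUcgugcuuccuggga
hsa-miR-3689d: gGGAGGUGugaucucacacucg
MIR3689A read 6.94 and 7.14 (0.19), MIR3689B 6.39 and 6.20 (-0.18), and MIR3689F 7.51 and 7.37 (-0.14) and 6.58 and 6.38 (-0.20). MIR3689D1 read 6.12 and 6.20 (0.08) and MIR3689D2 5.87 and 5.78 (-0.09). Genes with 1 mature sequence in common thus had small differences of both signs, all within 1.2 fold. The other shared seeds joined MIR3916 (8.01 on both arrays) with MIR3125 (6.51 and 6.65), and MIR4739 (5.99 and 5.81) with MIR4756 (6.63 and 6.61).

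Of 31 genes for microRNA processing and function, 19 had a named probe set. Their median difference was 0.00, with 4 lower and 5 higher by at least 1.2 fold, 10 within it and 0 past 1.8 fold. This was 21.1% lower and 26.3% higher, over 19 genes, beside 9.78% and 8.5% of all named probe sets and 13.4% and 10.7% of those at or above the level. DROSHA, DICER1 and the 4 Argonaute genes are unnamed on this array here. Within 1.2 fold were DGCR8, the partner of Drosha, at 7.19 and 7.09, exportin-5 (XPO5) at 10.29 on both arrays and the Dicer partner TARBP2 at 8.29 on both. Lower were HNRNPA1, an RNA-binding protein gene that assists the processing of some hairpins, at 8.37 and 7.83 (-0.54), TENT2, a poly(A) polymerase gene, at 9.15 and 8.61 (-0.54), and the exonuclease gene XRN2 at 9.06 and 8.69 (-0.38), besides DDX5. Higher, besides LIN28B, were TNRC6C at 8.84 and 9.43 (0.59) and TNRC6A at 9.15 and 9.69 (0.54), 2 genes for the GW182 proteins through which Argonaute silences its targets, PNPT1 (0.29), and the exonuclease gene XRN1 (0.28). TNRC6B, which encodes the other GW182 protein, read 8.23 and 8.20.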

How the data were processed

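The values deposited by the authors are log2 levels, 1 for each probe set and for each of 2 Affymetrix HuGene-2_0-st arrays, 1 per siRNA. Their methods name R with Bioconductor, whereas MAS5 is named in the processing notes of the submitters. Normalization, versions and array build were not given in the sources used here. Values were used as deposited, so the background treatment of weak probe sets is that of the authors. Arrays have no read depth, and their number limits the precision.

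Gene names came from the platform annotation, with 16098 probe sets of exactly 1 symbol and 37519 unnamed here. Differences are linc00467 siRNA minus control siRNA. Microarray counts were made over probe sets. Sequences, strands and gene spans came from RefSeq tables (GRCh38.p14), and hairpins matched 153 of 178 genes. A host is a gene of known strand whose span holds the microRNA on the same strand. Named genes were those past 1.8 fold, the 10 lowest and 10 highest differences, the 10 highest levels, 3 on either side of the level, those sharing a seed, and the 3 largest differences either way among processing genes. Others were picked with their values in view. The members and lists were chosen with earlier results of these data known. Alternatives were other scalings, a floor, other folds and levels, and other ways to count genes. Procedures were tested on simulated data. Python 3.11.15, numpy 2.4.6, pandas 2.3.3, scipy 1.17.1, statsmodels 0.14.6 and matplotlib 3.10.9 were used.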

Additional observations from a re-analysis of the deposited data

How the results depend on the processing

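No paired analysis was possible because each condition has 1 array, and no replicate could be left out. The median difference of the microRNA probe sets stayed between -0.01 and 0.04 under every alternative run. The count of lower and higher probe sets moved by over 1.5 times with the fold, to 5 and 2 at 1.5 fold, 2 and 2 at 1.8 fold and 1 and 1 at 2 fold. With a mean level of at least 5 (316 probe sets) 49 were lower, and with at least 6.5 (101 probe sets) 14 were lower and 8 higher, where more or fewer probe sets were counted. Without probe sets known to lie inside a gene on the same strand (95 left) 11 were lower and 20 higher. Beside them stand 13.4% and 10.7% of named probe sets at or above the level. The 20 include 5 probe sets of MIR3135B, 3 of MIR3180-4 and 2 of MIR328, most of them with values identical to another of the same gene. Genes of unknown strand stayed among the 95, so this split is not a result about genes without a host. Quantile normalization gave 24 and 35, lowess correction 32 and 26. With a gene's probe sets averaged 30 and 18 of 178 genes passed, and with identical values of a gene counted once, an alternative chosen after seeing the data, 31 and 21 of 196. The 7 microRNA genes past 1.5 fold kept their direction under all 4 scalings, and no difference moved by more than 0.046, but after quantile normalization MIR3194, at -0.58, was no longer past 1.5 fold. Weak probe sets depend most on the background treatment, which could not be redone here.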
